A study of Mus musculus with 26 samples.

Results

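The epithelium of the mouse small intestine was compared between the embryo at day E16.5, before birth, and postnatal day 3 (P3), during suckling. The members are the 2 P3 and 2 E16.5 libraries among 26 libraries of 13 sorted groups, taken by their labels and by no measured value. Tissue ran from the caudal part of the duodenum to the ileocecal junction in C57BL/6 mice homozygous for a knock-in that fuses EGFP to the N-terminal end of BLIMP1, so both ages carry the fusion on both alleles and neither is a wild type. The E16.5 cells were sorted as EpCAM-positive and reporter-positive, and the P3 cells as EpCAM-positive and reporter-negative, so age and gate changed together and cannot be told apart. The P3 intestine was also opened lengthwise before the epithelium was released, a step that the E16.5 protocol lacks. Each library was made from 1 ng of RNA and read at the 3′ ends of transcripts. Reporter-negative EpCAM-positive epithelium at postnatal day 14 (P14; 2 libraries) is given beside the levels for orientation only. No label says that the 2 libraries of a group came from separate animals, so p-values measure the spread between libraries, which may be technical.

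The small intestine of the mouse changes its task at birth. Before birth the epithelium is bathed in swallowed amniotic fluid, and afterwards it takes up milk, whose fat is the main fuel of the suckling pup and whose proteins are still taken up whole by endocytosis. Crypts, the pockets that hold stem cells and Paneth cells, form in the mouse after birth between the villi. BLIMP1, encoded by Prdm1, is a transcriptional repressor known for being present in the epithelium before birth, lost from the forming crypts, and required to hold back the switch from the suckling to the adult type of enterocyte.

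Values are RPM as deposited, that is reads scaled to a fixed total for each library. Differences are P3 minus E16.5 on the scale of log2(RPM + 1), given with their standard error from a limma fit of the 6 intestinal libraries. A gene rose or fell where its adjusted p (Benjamini-Hochberg over 10178 tested genes) was below 0.05 and its log2 difference was at least 1 in size. The 4 libraries held 2.23 to 3.24 M reads, so that 1 read was worth 0.309 to 0.448 RPM, and differences of genes near 1 RPM in one age rest on few reads and are understated by the added 1. Genes with no RPM in either library of an age are given as listed at 0, with no fold. A gene was tested where at least 2 of the 4 libraries held 5 RPM. By this filter 537 genes were tested on their P3 values alone, with both E16.5 values below 5 RPM, and 244 on their E16.5 values alone. Such genes had to be higher in the age that passed them, so the counts of calls below describe the tested members and are no support for a change of a whole list.

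Of the 10178 tested genes, 1252 rose (12.3%) and 858 fell (8.43%), and the median gene moved by 0.11. Genes with at least 4-fold rises numbered 370 and with at least 4-fold falls 242. The genes that rose made up 29405 and 28571 RPM of the E16.5 libraries and 100910.2 and 99512 RPM of the P3 libraries. Those that fell made up 138001 and 144409 RPM at E16.5 and 39001 and 39585 RPM at P3. Rises were 59.3% of the calls as deposited and 49.3% after quantile normalization, while scaling by the median of ratios moved the median gene from 0.11 to -0.01. The genes that fell thus held more of the RPM at E16.5 than the genes that rose held at P3. Since bulk libraries were read, fewer cells of a type and less RNA per cell cannot be told apart in any of the differences below.

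**Figure D1:**
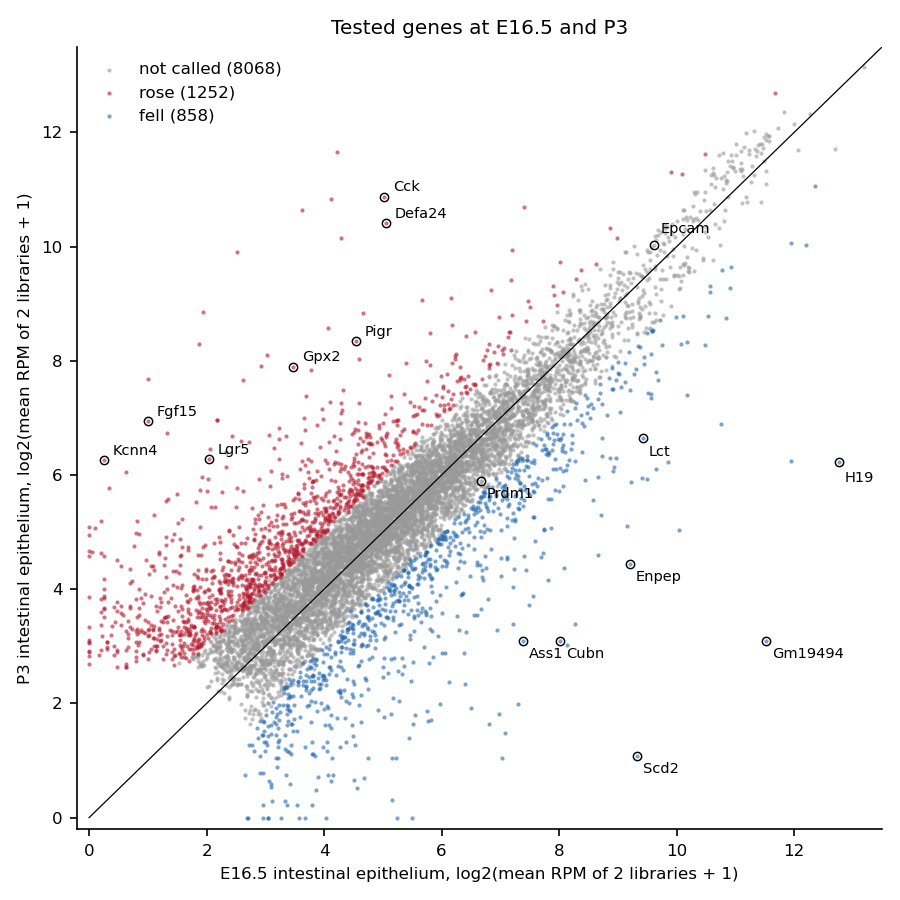
Mean level of each of the 10178 tested genes at E16.5 (x axis) and P3 (y axis), both as log2(mean RPM of 2 libraries + 1). The line marks equal levels, red points are the 1252 genes that rose, blue points the 858 that fell, and circled genes are named in the text. Scd2 and Gm19494 stand far to the lower right, and Fgf15, Cck and Kcnn4 to the upper left.

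Prdm1 (Entrez ID 12142, chromosome 10, 44437174 to 44528558, GRCm38.p6, as for all positions here) held 93.5 and 107 RPM in the E16.5 libraries and 46.2 and 71.3 RPM in the P3 libraries. The gates selected on the reporter fused to its protein, so its difference cannot be told apart from the sort. The ages did not overlap, but the difference of log2 -0.79 ± 0.23 was not called (limma, adjusted p = 0.00753). Without P3 replicate 2 it was called (log2 -1.10). Prdm1 was thus still read at P3 in cells sorted without reporter signal, and it held 21.4 and 16.9 RPM at P14. Epcam (Entrez ID 17075, chromosome 17, 87635979 to 87651127), the sorted surface antigen, was read at 717 and 858 RPM at E16.5 and 1042 and 1051 RPM at P3 and was not called (log2 0.42 ± 0.15). Of 15 genes of intestinal epithelial identity, all were tested, 3 rose and 2 fell, beside 12.3% and 8.43% of all tested genes.

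Markers of other cells were mostly below the filter of 5 RPM in 2 of the 4 libraries. Summed over the list, mesenchyme, muscle and mesothelium markers held 89.2 and 139 RPM at E16.5 and 33.6 and 45.7 RPM at P3, with 4 of 22 tested and 18 below the filter. Its largest fall was Upk3b, a mesothelial gene, from 44.6 and 40.4 to 2.24 and 1.01 RPM (log2 -4.09 ± 0.45). The smooth muscle actin Acta2 fell too (log2 -2.19 ± 0.47), though not without E16.5 replicate 2 (log2 -1.33). All 3 tested haemoglobin genes of red cells fell, with Hbb-b1 at 27.3 and 64.4 RPM against 3.14 and 1.85 RPM at P3 (log2 -3.65 ± 0.61). Of the 14 red cell markers 9 were below the filter, and with no filter 6 were tested and 1 was called as falling. Markers of pancreas and liver split, with 2 of 7 tested rising and 3 falling (19 on the list). Afp, the fetal albumin relative, fell from 190.1 and 352 to 15.7 and 23.6 RPM (log2 -3.68 ± 0.38). The fibrinogen gene Fgb was listed at 0 in both P3 libraries and held 8.85 and 14.8 RPM at E16.5, while the pancreatic protease gene Ctrb1 rose from 0 and 0.926 to 12.6 and 27.9 RPM (log2 3.83 ± 0.50). Immune cell markers summed to 87.7 and 59.0 RPM at E16.5 and 34.1 and 40.9 RPM at P3, with 19 of 21 below the filter. Of the 2 tested, the macrophage receptor Csf1r fell from 50.8 and 43.2 to 12.6 and 10.4 RPM (log2 -1.94 ± 0.37), and Cd68, a lysosomal protein of macrophages, rose from 0.769 and 1.24 to 9.42 and 8.08 RPM (log2 2.29 ± 0.45). Endothelial markers (11 of 12 below the filter) and enteric neuron and glia markers (10 of 12 below) summed to at most 43.6 RPM in any of the 4 libraries, and one of the glial list, S100b, rose from 2.69 and 2.16 to 14.8 and 14.5 RPM (log2 2.19 ± 0.43). Of 14 stomach markers, 12 were below the filter, with Gkn1, Muc5ac and Atp4b at 0 in all 4 libraries. The 2 tested ones rose, Gkn3, a gastrokine, from 0 and 0.309 to 39.5 and 32.0 RPM (log2 4.997 ± 0.37) and Cym, the milk-clotting protease chymosin of the suckling stomach, from 20.0 and 15.1 to 3042 and 3430.0 RPM (log2 7.46 ± 0.19), so that the list summed to 24.4 and 20.1 RPM at E16.5 and 3085 and 3463 RPM at P3. Of 13 large intestine markers 6 were tested and 2 fell, Hoxd13 and Hoxb13 were at 0 in all 4 libraries, and the sum was 525 and 556 RPM at E16.5 and 575 and 565 RPM at P3. The part of these cells in the results was not tested.

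Hormone genes of the enteroendocrine cells rose. Among 24 hormone and granule genes 23 had a usable line and 18 were tested, while 5 were below the filter, among them the gastric hormone gene Gast. Each of the 18 was called as rising, but 11 of them were tested on their P3 values alone. Cck (Entrez ID 12424, chromosome 9, 121489824 to 121495694), the cholecystokinin that empties the gallbladder after a fatty meal, held 41.9 and 21.3 RPM at E16.5, 2462 and 1289 RPM at P3 and 297 and 688 RPM at P14 (log2 5.85 ± 0.30). Ghrl, the appetite hormone ghrelin, went from 24.6 and 23.8 to 633 and 279 RPM (log2 4.06 ± 0.26). Sct, which encodes secretin, already stood at 60.0 and 39.8 RPM at E16.5 and reached 649 and 424 RPM (log2 3.40 ± 0.23). For Cck, Ghrl and Sct every P3 value was above every E16.5 value, as in 38.9% of all tested genes. Gcg, the glucagon precursor that gut cells cut to GLP-1, rose from 5.002 and 5.25 to 243 and 159 RPM (log2 5.01 ± 0.21). Unlike Cck and Ghrl, its P14 values of 327 and 452 RPM were higher still. Tph1, the enzyme for serotonin, rose from 0.769 and 1.54 to 46.6 and 30.6 RPM (log2 4.19 ± 0.36), and Tac1, the substance P precursor, from 0.769 and 2.16 to 43.0 and 48.1 RPM (log2 4.30 ± 0.36).

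The P3 libraries differed from each other in this group. The first P3 library was higher in 15 of the 18 hormone and granule genes, and in 4245 of all 10178 tested genes. The reverse held for the cell cycle genes below, of which 30 of 39 were higher in the second P3 library. Hormone genes summed to 9550.5 RPM in the first and 6399 RPM in the second P3 library, against 185 and 136 RPM in the E16.5 libraries.

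Transcription factors of the enteroendocrine line rose too, at far lower levels. Of 15, 12 were tested and called as rising, 10 of them on their P3 values alone, and 3 were below the filter, among them Pax4 and Myt1. With a filter of 20 RPM 2 were tested and called. Neurog3, which commits a progenitor to the endocrine fate, stood at 3.46 and 2.47 RPM at E16.5 and 22.4 and 15.5 RPM at P3 (log2 2.32 ± 0.33). Neurod1, which acts after it, rose from 8.85 and 3.40 to 35.9 and 37.0 RPM (log2 2.51 ± 0.34), and Fev, a factor of serotonin cells, from 0 and 0.618 to 8.97 and 9.42 RPM (log2 3.00 ± 0.46). Foxa2 was listed at 0 at E16.5 and read at 7.17 and 7.74 RPM at P3. Foxa1 (1.00 ± 0.24) was not called with either rescaling (0.88 in both), with a pseudocount of 5, or without E16.5 replicate 1 or P3 replicate 2.

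Genes of the Notch pathway, through which neighbouring cells divide absorptive and secretory fates, moved less. Of 20 on the list 11 were tested, 6 rose and none fell (3 of 6 tested with a filter of 20 RPM). Of the 11, 2 were tested on their P3 values alone. The receptor Notch1 rose from 9.62 and 6.18 to 24.7 and 18.5 RPM (log2 1.36 ± 0.33; not called without P3 replicate 1, 1.16) and the ligand Dll1, carried by secretory progenitors, from 13.1 and 14.8 to 36.8 and 42.4 RPM (log2 1.44 ± 0.25). Atoh1, the factor that commits cells to the secretory fate, rose from 1.154 and 1.85 to 16.1 and 13.8 RPM (log2 2.68 ± 0.35). Hes1, the Notch target that opposes Atoh1, held 56.6 and 56.5 RPM and 87.4 and 92.5 RPM and was not called (log2 0.66 ± 0.22).

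Goblet cells make the mucus layer. Of 16 goblet genes, 13 were tested, 10 rose and none fell, and 4 of the 13 were tested on their P3 values alone. Kcnn4 (Entrez ID 16534, chromosome 7, 24369826 to 24385212), a calcium-activated potassium channel, had the largest difference of the list, from 0.385 and 0 to 67.7 and 83.1 RPM (log2 6.01 ± 0.29). Muc2 (Entrez ID 17831, chromosome 7, 141690340 to 141754691), the gel-forming mucin, rose from 14.2 and 17.9 to 155 and 153 RPM (log2 3.19 ± 0.20), and Fcgbp, a further mucus protein, from 70.0 and 71.3 to 517 and 574 RPM (log2 2.93 ± 0.15). Agr2, a disulfide isomerase that folds mucin, went from 103 and 125 to 637 and 566 RPM (log2 2.39 ± 0.15). Guca2a, which encodes guanylin, a peptide that drives fluid secretion, held 426 and 353 RPM at E16.5, 224 and 236 RPM at P3 and 593 and 619.9 RPM at P14 (log2 -0.75 ± 0.14 at P3, not called). The mean of each of the 13 tested genes was higher at P14 than at P3, as in 4045 of all 10178 tested genes.

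Paneth cells sit at the crypt base and secrete antimicrobial peptides. Of 23 genes, 22 had a line, 16 were tested (9 on their P3 values alone), 12 rose and 2 fell. Defa24 (Entrez ID 503491, chromosome 8, 21734494 to 21735471), an alpha-defensin, held 34.4 and 29.6 RPM at E16.5 and 1486 and 1230.1 RPM at P3 (log2 5.36 ± 0.16). Mmp7, the protease that activates alpha-defensins in the mouse, went from 1.54 and 0 to 39.9 and 31.3 RPM (log2 4.51 ± 0.35). Lyz1, the Paneth lysozyme, stood at 1.92 and 2.47 RPM, 28.7 and 22.9 RPM and, at P14, 199.9 and 302 RPM (log2 3.06 ± 0.26 at P3). The intelectin Itln1 was listed at 0 at E16.5 and reached 38.1 and 21.9 RPM. A run of 11 neighbouring tested genes of the alpha-defensin cluster on chromosome 8 (21025545 to 21735471) rose. Alpha-defensins are near-identical copies, and no source at hand says how reads shared between them were counted, so the split among copies is uncertain.

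The 2 members that fell are lectins of the Reg family, which enterocytes make as well. Reg3b (Entrez ID 18489, chromosome 6, 78370885 to 78373466) held 1009 and 178 RPM in the E16.5 libraries and 62.3 and 53.3 RPM in the P3 libraries (log2 -2.86 ± 0.40). Reg3g held 219 and 57.1 and 18.8 and 26.8 RPM (log2 -2.27 ± 0.34). Both were several times higher in the first E16.5 library than in the second, as was Reg1 (311 and 30.3 RPM), and yet the lower E16.5 library was above both P3 libraries for Reg3b and Reg3g. Tuft cell genes were mostly below the filter (13 of 15).

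Crypt and stem cell genes rose in 17 of 19 tested (20 on the list), and 6 of the 19 were tested on their P3 values alone. Lgr5 (Entrez ID 14160, chromosome 10, 115450314 to 115587780), the receptor that marks crypt base stem cells, held 3.46 and 2.78 RPM at E16.5, 56.9 and 95.6 RPM at P3 and 114 and 70.4 RPM at P14 (log2 4.19 ± 0.28). Its partner ligase Rnf43 rose from 13.9 and 14.5 to 85.2 and 93.2 RPM (log2 2.57 ± 0.20) and Smoc2, a secreted matrix protein, from 6.55 and 4.68 to 102 and 87.1 RPM (log2 3.86 ± 0.22). Sox9, a factor of crypt and Paneth cells, went from 10.4 and 18.8 to 141 and 144 RPM (log2 3.25 ± 0.22). Ephb2, the receptor that places cells along the crypt axis, had a smaller difference, from 20.8 and 22.5 to 59.2 and 81.4 RPM (log2 1.64 ± 0.22). P3 lay above E16.5 without overlap in 18 of the 19, against 38.9% of all tested genes, and Tnfrsf19 was below the filter.

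Of 41 Wnt, BMP, hedgehog and growth factor signals 23 were tested, and 8 rose and 3 fell. Of the 23, 4 were tested on their P3 values alone and 1 on its E16.5 values alone. With a pseudocount of 5 RPM 6 rose and 1 fell, and with a filter of 20 RPM 3 rose and 2 fell. The Wnt target Axin2 rose from 1.154 and 2.78 to 19.3 and 27.3 RPM (log2 3.07 ± 0.36) and Myc (Entrez ID 17869, chromosome 15, 61985341 to 61990361), a growth regulator, from 16.54 and 29.3 to 107 and 112 RPM (log2 2.26 ± 0.23). Fzd7, a Wnt receptor, rose from 2.31 and 6.18 to 17.0 and 19.2 RPM (log2 1.97 ± 0.36). On the BMP side Bmp7 fell from 69.6 and 76.6 to 30.0 and 39.4 RPM (log2 -1.06 ± 0.21), though not with a pseudocount of 5 or without P3 replicate 1 (-0.87) or E16.5 replicate 2. Ligands of the Wnt family on the list were below the filter, among them Wnt3, Wnt6 and Wnt11, as were the BMP ligand Bmp4 and the hedgehog target Gli1.

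Cell cycle genes rose in 25 of 39 tested (41 on the list, none fell, median 1.23), and 2 of the 39 were tested on their P3 values alone. Mcm3, a subunit of the replicative helicase, rose from 29.6 and 34.3 to 124 and 142 RPM (log2 2.02 ± 0.18), and Top2a, a topoisomerase of dividing cells, from 78.5 and 63.6 to 226 and 269.9 RPM (log2 1.79 ± 0.16). Mki67, the proliferation marker, stood at 48.9 and 54.5 RPM and 124 and 199 RPM (log2 1.58 ± 0.20). All 25 were already read at E16.5, where Pcna held 255 and 371 RPM. Cdkn1c, an imprinted inhibitor of the cycle, fell, as described with the imprinted genes.

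**Figure D2:**
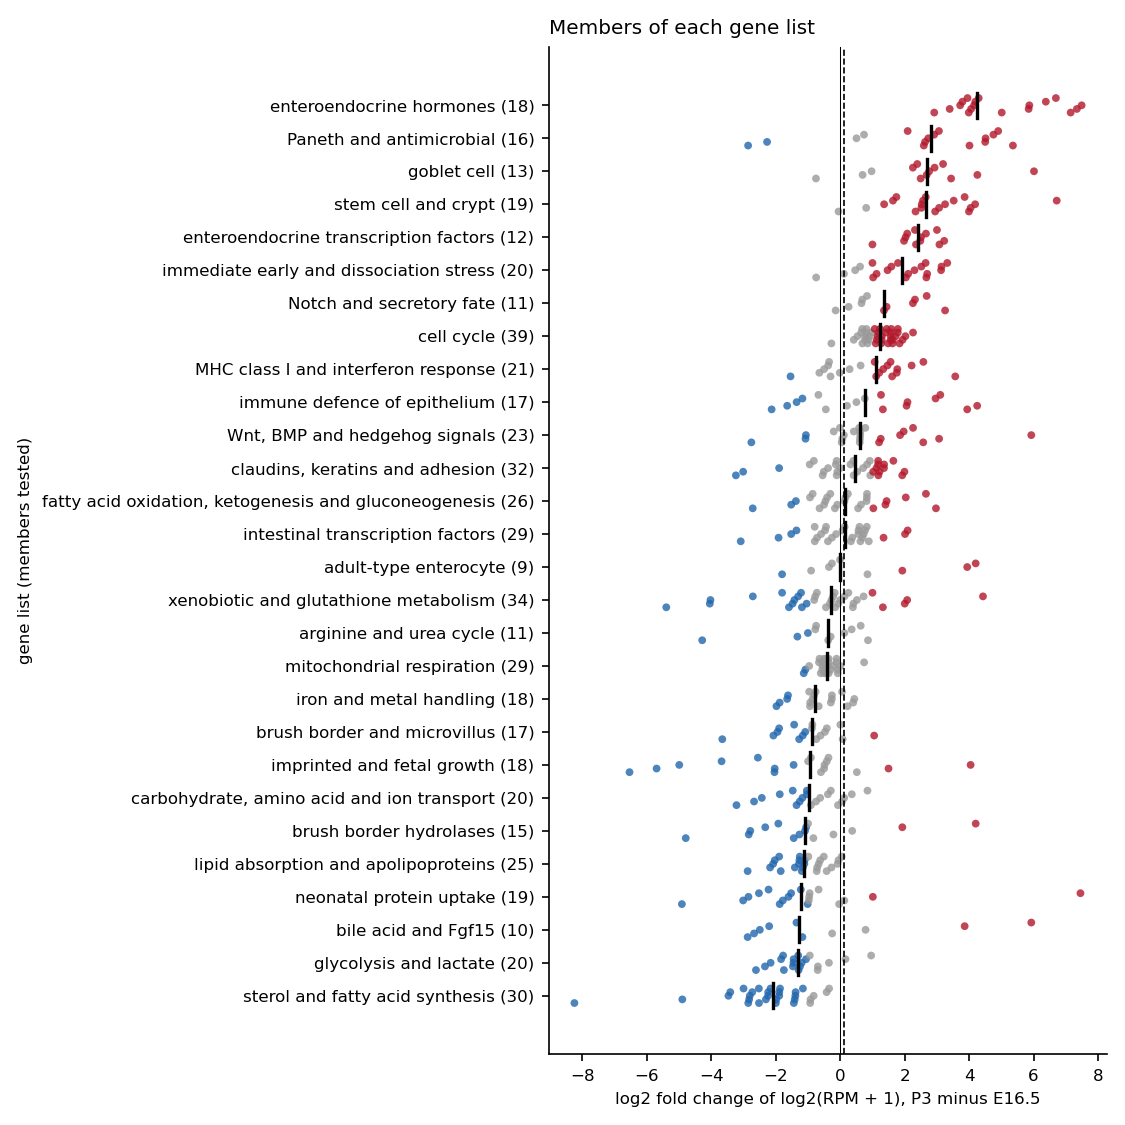
Difference in log2(RPM + 1) from E16.5 to P3 for each tested member of the 28 gene lists with at least 9 tested members (x axis), identity genes left out, with the number of members tested in brackets. Each point is 1 gene, red where it rose, blue where it fell and grey where it was not called, the short black line is the list's median and the dashed line the median of all tested genes, 0.11. Endocrine hormones lie at the top with a median of 4.25, and sterol and fatty acid synthesis at the bottom with -2.08.

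Lists of absorptive cells held more falls than rises. Genes of the brush border, the carpet of microvilli on enterocytes, fell in 8 of 17 tested and rose in 1 (median -0.88). Pdzk1, a scaffold for apical transporters, fell most, from 163 and 209.6 to 13.0 and 14.5 RPM (log2 -3.66 ± 0.23). The actin bundler Pls1 fell from 404 and 442 to 99.5 and 100.0 RPM (log2 -2.07 ± 0.15), and Slc9a3r1, an apical scaffold, from 531 and 520.2 to 133 and 138 RPM (log2 -1.95 ± 0.14). Other members changed less: Vil1, the actin-binding villin, held 1125 and 1080.0 RPM and 713 and 730.0 RPM and was not called (log2 -0.61 ± 0.13), and Cdhr2, a tip-link cadherin, held 202 and 206 and 149.8 and 143 RPM (log2 -0.47 ± 0.15, not called).

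Of 21 brush border hydrolases, 15 were tested, 9 fell and 2 rose (median -1.09), and 2 of the 15 were tested on their P3 values alone. Lct (Entrez ID 226413, chromosome 1, 128284756 to 128328318), the lactase that splits milk sugar, held 654 and 723 RPM at E16.5, 105 and 92.2 RPM at P3 and 153 and 199 RPM at P14 (log2 -2.79 ± 0.16). Enpep (Entrez ID 13809, chromosome 3, 129269177 to 129332749), an aminopeptidase, fell from 509 and 664 to 14.8 and 26.9 RPM (log2 -4.79 ± 0.24). The fall was not shared by all, as Anpep (93.1 and 63.3 RPM against 109 and 91.2 RPM) was not called. Sis, the sucrase-isomaltase known as a marker of the adult enterocyte, rose from 1.154 and 0.309 to 24.7 and 36.3 RPM (log2 4.20 ± 0.37). It was tested on its P3 values alone, so its direction was fixed by the filter. Of the 13 adult-type genes 9 were tested (2 on their P3 values alone), 3 rose and 1 fell, and Arg2, Otop3, Cyp3a11 and Cyp3a25 were below the filter.

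Enterocytes of the newborn take up whole proteins into large lysosomes. Of the 20 genes listed under this route 19 were tested, 11 fell and 2 rose (median -1.22). The 2 that rose include Cym, a milk-clotting protease rather than an uptake gene. Parts of its receptor complex fell: Cubn (Entrez ID 65969, chromosome 2, 13276338 to 13491876), the receptor cubilin, from 274 and 241 to 8.07 and 7.07 RPM (log2 -4.91 ± 0.29), its anchor Amn from 502 and 525 to 225 and 214 RPM (log2 -1.22 ± 0.15), and the endocytic adaptor Dab2 from 84.3 and 120.1 to 12.1 and 22.9 RPM (log2 -2.52 ± 0.34). Among lysosomal enzymes, the sialidase Neu1 fell from 376 and 387 to 45.7 and 47.1 RPM (log2 -3.01 ± 0.19) and the galactosidase Glb1 from 746 and 767 to 178 and 146 RPM (log2 -2.22 ± 0.15). Ctsb, the protease cathepsin B, held 1184 and 1193 and 727 and 767 RPM (log2 -0.67 ± 0.14, not called). Fcgrt, the receptor that carries milk antibodies across the epithelium, was read at 308 and 220.1 RPM and 282 and 229 RPM and was not called. The list summed to 5736 and 5884 RPM at E16.5 and 5781 and 6101 RPM at P3, of which Cym, counted above among the stomach markers, held 3042 and 3430.0 RPM at P3.

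Genes for the uptake and packaging of fat fell in 14 of 25 tested, none rose (26 on the list, median -1.11). Fabp1 (Entrez ID 14080, chromosome 6, 71199879 to 71205034), a fatty acid carrier, held 4201 and 5224 RPM at E16.5, 1153 and 931 RPM at P3 and 508 and 489 RPM at P14 (log2 -2.18 ± 0.14). Acsl5, which activates fatty acids, fell from 1951 and 1698 to 412 and 448 RPM (log2 -2.08 ± 0.13) and Apoa1, the main protein of HDL, from 3756 and 4165 to 1058 and 1069.5 RPM (log2 -1.89 ± 0.15). Mttp, which loads lipid onto the chylomicron, fell from 1395 and 1639.8 to 586 and 674 RPM (log2 -1.27 ± 0.14). The chylomicron protein Apob was not called (356 and 498 against 282 and 265 RPM, log2 -0.62 ± 0.17), and Apoa4 stood at 4894 and 4976 and 5338 and 4865 RPM, with the ages overlapping. In all, the list summed to 27289 and 28930.4 RPM at E16.5 and 14770.0 and 13425 RPM at P3.

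Nutrient transporters fell in 10 of 20 tested, and none rose. The apical anion exchanger Slc26a6 fell from 70.4 and 55.9 to 8.97 and 3.70 RPM (log2 -3.22 ± 0.32), and the 2 subunits of the cystine carrier fell together, Slc3a1 from 63.9 and 63.0 to 10.8 and 11.1 RPM (log2 -2.43 ± 0.26) and Slc7a9 from 344 and 324 to 113 and 127 RPM (log2 -1.47 ± 0.15). Slc2a2, the glucose exit carrier, fell from 41.2 and 42.6 to 13.0 and 8.75 RPM (log2 -1.88 ± 0.32). The fructose carrier Slc2a5 held 8.85 and 5.25 and 17.5 and 9.76 RPM and was not called. Of 18 tested genes of iron and metal handling, 4 fell and none rose, led by the iron importer Slc11a2, from 127 and 130.0 to 34.97 and 29.1 RPM (log2 -1.98 ± 0.20), and the iron exporter Slc40a1, from 333 and 239 to 76.2 and 75.7 RPM (log2 -1.88 ± 0.20).

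**Figure D3:**
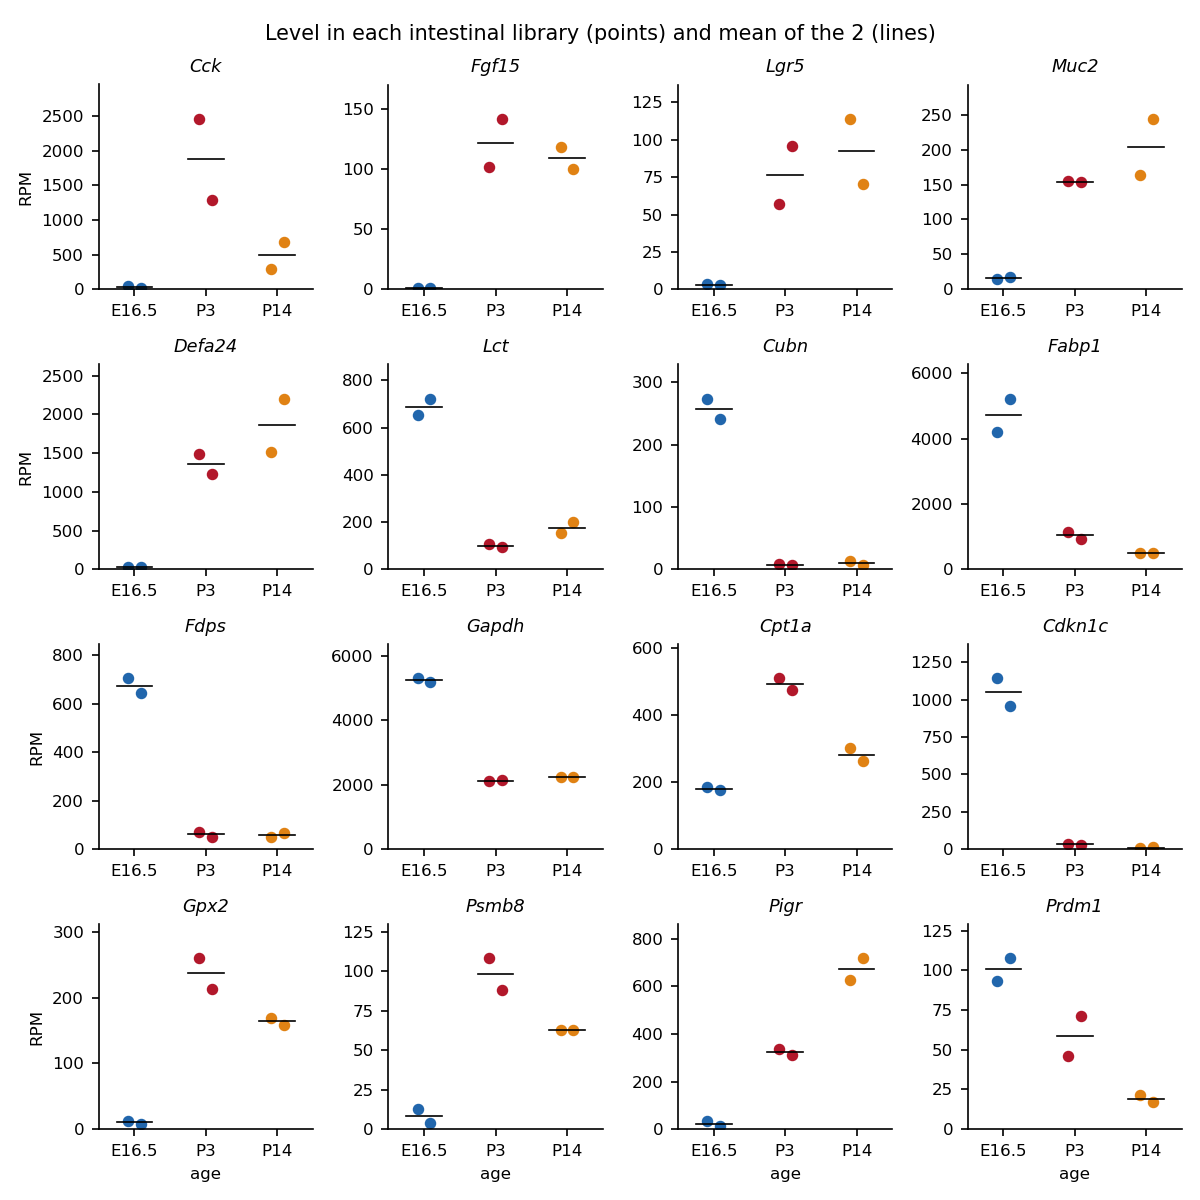
Level of 16 genes in RPM (y axes, each from 0) in the 2 libraries of E16.5, P3 and P14 intestinal epithelium (x axis); each point is a library and each line the mean of 2. The 16 genes were picked from those named in the text. P3 and E16.5 points do not overlap in any panel. Among all tested genes P3 lay above E16.5 without overlap in 38.9% and below in 29.4%. In panels such as Fabp1, Cdkn1c and Prdm1 the P14 points lie below both ages. The 2 points of Prdm1 are lower at each later age, where E16.5 cells were sorted as positive and later cells as negative for the BLIMP1 reporter.

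Genes for the synthesis of sterols and fatty acids fell, with the lowest median of the 28 lists that had at least 9 tested members. In all 30 genes, each of them tested, both P3 values were below both E16.5 values, as they were in 29.4% of all tested genes. For 3 of the 30, tested on their E16.5 values alone, this direction was fixed by the filter. Of the 30, 25 fell and none rose (median -2.08). Cholesterol is built from acetyl-CoA through mevalonate, squalene and lanosterol, and its enzymes are controlled together by SREBP transcription factors, which are held in the endoplasmic reticulum when sterol is plentiful. Promoters of these genes bind SREBP together with NF-Y, a factor that recognises the CCAAT box. The stretches below are the 150 bases before the annotated start of transcription in RefSeq's GRCm38.p6 annotation, on the strand of the gene, chosen to show the CCAAT boxes (CCAAT or, on the other strand, ATTGG) of mevalonate pathway genes and the 1 sterol regulatory element (TCACNCCAC or its reverse complement) in the list's windows, both in capitals.
Hmgcs1 (chr13:119690201-119690350, plus strand): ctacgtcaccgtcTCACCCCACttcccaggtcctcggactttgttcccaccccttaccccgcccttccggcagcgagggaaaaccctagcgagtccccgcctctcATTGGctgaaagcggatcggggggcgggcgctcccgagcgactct
Mvk (chr5:114444119-114444268, plus strand): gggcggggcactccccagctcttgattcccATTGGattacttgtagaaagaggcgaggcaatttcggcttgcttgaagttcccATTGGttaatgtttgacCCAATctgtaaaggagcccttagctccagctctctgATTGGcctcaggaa
Mvd (chr8:122443423-122443572, minus strand): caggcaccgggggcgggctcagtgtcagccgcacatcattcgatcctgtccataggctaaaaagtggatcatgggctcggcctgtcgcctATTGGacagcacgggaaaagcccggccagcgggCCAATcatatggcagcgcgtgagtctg
Idi1 (chr13:8885456-8885605, plus strand): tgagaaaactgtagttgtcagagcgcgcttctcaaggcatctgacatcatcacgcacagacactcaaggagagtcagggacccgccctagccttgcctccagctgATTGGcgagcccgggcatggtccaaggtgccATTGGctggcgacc

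Promoter windows of 300 bases (250 before to 50 after the start) were found for 20 of the 30 genes, with 25 windows. A CCAAT box lay in 18 of the 25 (72.0%) and in 37.4% of 32851 windows of all genes. It lay in 40.6% of the windows of all genes that fell and 41.3% of those that rose, and the 37 lists with at least 10 windows ranged from 16.7% for the bile acid genes to 73.0% for the cell cycle genes (27 of 37 windows). The share of the sterol list was thus not particular to it. The TCACNCCAC element lay in 1 of the 25 windows, in Hmgcs1, and in 1.24% of all windows. A match describes the letters and is no evidence of binding.

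By step of the pathway, Hmgcs1 (Entrez ID 208715, chromosome 13, 119690351 to 119708260), which makes HMG-CoA, held 308 and 388 RPM at E16.5, 55.6 and 63.6 RPM at P3 and 39.4 and 60.8 RPM at P14 (log2 -2.52 ± 0.20). Later enzymes of the mevalonate route, Mvk, from 36.9 and 41.1 to 5.83 and 6.06 RPM (log2 -2.52 ± 0.34), and Mvd, from 92.3 and 93.9 to 10.8 and 10.8 RPM (log2 -3.00 ± 0.25), fell as well. In each of these genes P3 lay below E16.5 without overlap, as in 29.4% of all tested genes. Their P14 values stayed close to those of P3. Fdps (Entrez ID 110196, chromosome 3, 89093588 to 89101967), which makes farnesyl pyrophosphate, fell from 705 and 646 to 69.9 and 51.5 RPM (log2 -3.47 ± 0.18), a larger difference than that of Idi1, the isomerase before it (147 and 150.1 to 35.4 and 43.4 RPM, log2 -1.89 ± 0.21). In the sterol branch Sqle, the squalene epoxidase, fell from 176 and 205 to 34.97 and 40.4 RPM (log2 -2.31 ± 0.22) and Cyp51, a lanosterol demethylase, from 226 and 239.9 to 35.9 and 29.3 RPM (log2 -2.81 ± 0.19).

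Regulators of the pathway were read beside the enzymes. Insig1, which holds SREBP in the endoplasmic reticulum, fell from 365 and 474 to 37.7 and 38.7 RPM (log2 -3.41 ± 0.18), and Srebf1, which encodes SREBP-1, from 165 and 136 to 61.4 and 72.4 RPM (log2 -1.16 ± 0.18). Srebf2, which encodes SREBP-2, was not called (105 and 106 against 51.1 and 59.6 RPM, log2 -0.92 ± 0.19). Fatty acid enzymes split: Fasn, the synthase, fell from 280.1 and 281 to 83.0 and 59.2 RPM (log2 -1.98 ± 0.19), whereas Acly, which supplies cytosolic acetyl-CoA (log2 -0.42 ± 0.19), and the desaturase Fads2 (log2 -0.34 ± 0.19) were not called. The desaturase Scd2 held 663 and 619 RPM at E16.5, 0.897 and 1.35 RPM at P3 and 17.7 and 8.94 RPM at P14 (log2 -8.25 ± 0.28).

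**Figure D4:**
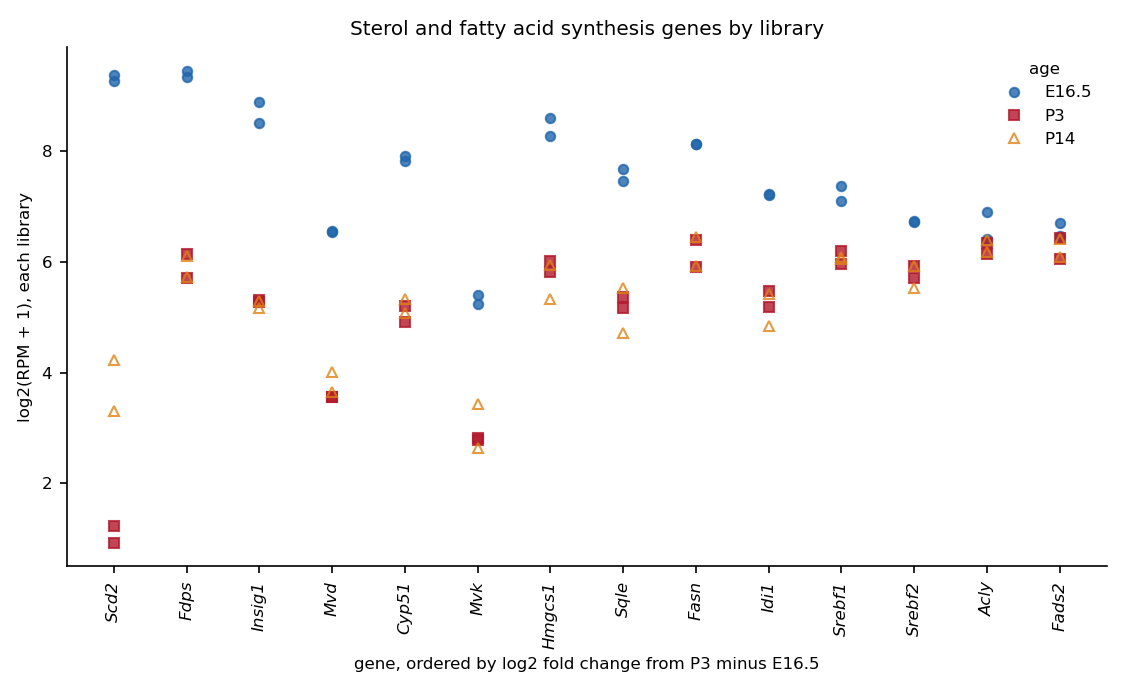
Level of the 14 genes of sterol and fatty acid synthesis named in the text in each library as log2(RPM + 1) (y axis), ordered along the x axis by their difference from E16.5 to P3. Blue circles are E16.5, red squares P3 and open orange triangles P14 (2 libraries each). In every gene both red squares lie below both blue circles, as in 29.4% of all tested genes.

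Gm19494, a line with no entry in the RefSeq table used, had the largest fall among genes with a mean of at least 20 RPM in the higher age. It held 2806 and 3077 RPM at E16.5, 4.04 and 11.1 RPM at P3 and 68.0 and 32.5 RPM at P14 (log2 -8.56 ± 0.29). Across all 26 libraries of the series its value was 3.21 to 8.25 times that of Scd2, so that both lines followed each other in intestine, retina, B lineage and germ cell-like cells. Whether the lines share reads was not tested.

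Genes of energy metabolism differed by pathway. Glycolysis and lactate genes fell in 14 of 20 tested and none rose (25 on the list, median -1.30), and 2 of the 20 were tested on their E16.5 values alone. Gapdh (Entrez ID 14433, chromosome 6, 125161852 to 125166467) held 5305 and 5208 RPM at E16.5 and 2111 and 2149 RPM at P3 (log2 -1.30 ± 0.13). Pgk1, which makes ATP in the pathway, fell from 1466 and 1509 to 427 and 457 RPM (log2 -1.75 ± 0.13), Ldha, which makes lactate, from 1848 and 2040.3 to 759 and 829 RPM (log2 -1.29 ± 0.14), and the glucose carrier Slc2a1 from 16.54 and 16.4 to 2.24 and 2.69 RPM (log2 -2.33 ± 0.41).

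Genes of fatty acid oxidation, ketogenesis and gluconeogenesis did not move as a block, with 6 of 26 up and 3 down (median 0.15). Among all tested genes 12.3% rose and 8.43% fell. Cpt1a, which admits fatty acids to mitochondria, rose from 186 and 176 to 509 and 476 RPM (log2 1.44 ± 0.14). Pdk4, which blocks the entry of pyruvate, rose from 1.54 and 0.309 to 19.3 and 9.09 RPM (log2 2.97 ± 0.45), and Angptl4, a lipase inhibitor induced by fatty acids, from 8.46 and 8.95 to 63.7 and 57.2 RPM (log2 2.66 ± 0.25). The regulator Ppara fell from 54.2 and 61.8 to 16.1 and 23.6 RPM (log2 -1.52 ± 0.24), and the oxidation enzyme Acadm was not called (231 and 286 against 131 and 136 RPM, log2 -0.94 ± 0.16). Of 29 mitochondrial respiration genes 2 fell and none rose (median -0.42), beside 8.43% falling and 12.3% rising among all tested genes.

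In the arginine pathway, by which the newborn gut makes arginine from glutamine and proline, 3 of 11 tested genes fell and none rose. Ass1 (Entrez ID 11898, chromosome 2, 31470270 to 31520670), which makes argininosuccinate, fell from 184 and 148 to 7.62 and 7.40 RPM (log2 -4.28 ± 0.25) and Asl, the next enzyme, from 77.3 and 62.1 to 23.8 and 30.6 RPM (log2 -1.33 ± 0.23). Cps1, the first enzyme of the route to citrulline, held 1504 and 1340.3 RPM and 2559 and 2604 RPM and was not called (log2 0.86 ± 0.15). Otc, which makes citrulline, held 327 and 372 and 189.7 and 219 RPM (log2 -0.77 ± 0.15, not called).

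Imprinted and fetal growth genes fell in 8 of 18 tested and rose in 2 (27 on the list, 9 below the filter). H19, an imprinted non-coding RNA, held 6903 and 6971 RPM at E16.5, 84.7 and 63.9 RPM at P3 and 2.75 and 0.828 RPM at P14. Its neighbour on chromosome 7, the growth factor Igf2, held 3649.6 and 4262 RPM, 74.9 and 75.1 RPM and 4.58 and 5.96 RPM. Cdkn1c (Entrez ID 12577, chromosome 7, 143458339 to 143461059), which encodes the cycle inhibitor p57, fell from 1143 and 961 to 32.8 and 31.02 RPM (log2 -4.99 ± 0.19), and its imprinted neighbour Phlda2, a growth restrainer, from 16.2 and 15.7 to 3.14 and 1.01 RPM (log2 -2.56 ± 0.48). Other imprinted genes were lower at P3 by less and were not called: Grb10 (77.7 and 88.0 against 40.4 and 47.1 RPM, log2 -0.91 ± 0.21) and Igf2r (113 and 133 against 89.2 and 73.0 RPM, log2 -0.60 ± 0.19). Grb10 was called as falling after median-of-ratios scaling (log2 -1.03). Igf1r, the receptor for IGF ligands, rose from 10.4 and 8.03 to 29.1 and 26.2 RPM (log2 1.50 ± 0.28).

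Genes of the bile acid loop, in which ileal cells reclaim bile acids and report them to the liver, split. Fgf15 (Entrez ID 14170, chromosome 7, 144896532 to 144900953), the hormone of that signal, held 0.769 and 1.24 RPM at E16.5, 102 and 142 RPM at P3 and 119 and 99.8 RPM at P14 (log2 5.93 ± 0.25). Its known inducer, the bile acid receptor gene Nr1h4, fell from 276 and 226 to 86.1 and 109 RPM (log2 -1.36 ± 0.17), and Osta, a subunit of the basolateral bile acid exporter, from 499 and 506 to 77.1 and 78.8 RPM (log2 -2.67 ± 0.15). Abcc3, another basolateral exporter, rose from 2.31 and 3.09 to 56.0 and 49.1 RPM (log2 3.86 ± 0.27), while the apical exporter Abcc2 fell from 84.3 and 76.6 to 9.86 and 18.2 RPM (log2 -2.49 ± 0.28). Slc10a2, the apical importer of the ileum, was below the filter. Of 13 genes 10 were tested, 2 rose and 6 fell. The 2 that rose were tested on their P3 values alone, and 2 others of the 10 on their E16.5 values alone.

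Detoxifying enzymes fell in 12 of 34 tested and rose in 5, beside 8.43% and 12.3% of all tested genes. Of the 34, 3 were tested on their E16.5 values alone and 1 on its P3 values alone. Glutathione transferases of the alpha class fell, with Gsta4 from 66.2 and 101 to 4.48 and 3.70 RPM (log2 -4.03 ± 0.30), as did those of the mu class, with Gstm1 from 271 and 270.5 to 124 and 113 RPM (log2 -1.19 ± 0.15). Gsta1, Gm3776 and Gm10639 are close copies whose reads may be shared. Gpx2 (Entrez ID 14776, chromosome 12, 76792335 to 76795554), the gut's glutathione peroxidase, went the other way, from 11.9 and 8.34 to 260.1 and 214 RPM (log2 4.43 ± 0.19), and Nqo1, a quinone reductase, rose from 22.7 and 23.2 to 58.3 and 59.6 RPM (log2 1.32 ± 0.22). Cyp2c65, a cytochrome P450, rose from 9.11 and 12.7 to 54.3 and 39.3 RPM (log2 2.003 ± 0.28), while a run of 5 genes of the same subfamily on chromosome 19 (39608844 to 40187286) fell.

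Of the transcription factors known in the intestine 29 of 32 were tested, 3 rose and 4 fell, beside 12.3% and 8.43% of all tested genes. Maf (Entrez ID 17132, chromosome 8, 115703253 to 115706894), known for holding an enterocyte program, fell from 231 and 191 to 23.3 and 24.4 RPM (log2 -3.09 ± 0.20). Vdr, the vitamin D receptor, rose from 22.7 and 13.0 to 65.9 and 79.4 RPM and reached 266 and 207 RPM at P14 (log2 2.01 ± 0.22 at P3). Ehf, an epithelial ETS factor, rose from 30.4 and 16.7 to 97.3 and 102 RPM (log2 2.09 ± 0.22). The factors that define the tissue were not called: Hnf4a held 554 and 631 and 738 and 752 RPM (log2 0.33 ± 0.14), Gata4 123 and 145 and 193 and 155 RPM (log2 0.37 ± 0.17), and Cdx2 41.6 and 46.0 and 26.5 and 25.9 RPM (log2 -0.72 ± 0.22).

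Junction and cytoskeleton genes held more rises than falls. Of 32 tested, 11 rose and 3 fell, beside 12.3% and 8.43% of all tested genes, so the share of falls was close to that of all genes. The claudin Cldn3 rose from 94.6 and 94.2 to 376 and 347 RPM (log2 1.92 ± 0.14), and Cldn8, a sealing claudin, fell from 82.7 and 119 to 9.42 and 13.8 RPM (log2 -3.01 ± 0.26). The integrin Itga6, which ties cells to the basement membrane, rose from 30.8 and 20.4 to 101 and 104 RPM (log2 1.99 ± 0.20), and Dsp, the desmosome protein desmoplakin, from 129 and 153 to 330.4 and 395 RPM (log2 1.36 ± 0.15). Among keratins, the partners Krt8 and Krt18 rose (1.18 ± 0.14 and 1.22 ± 0.14), while Krt20, a keratin of differentiated villus cells, fell from 255 and 259 to 78.5 and 59.6 RPM (log2 -1.89 ± 0.17).

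Of 30 genes of MHC class I and the interferon response 21 were tested, 12 rose, 1 fell and 8 were not called (median 1.12). Of the 21, 2 were tested on their P3 values alone. Psmb8 (Entrez ID 16913, chromosome 17, 34198195 to 34201454), a subunit of the immunoproteasome, held 12.7 and 4.01 RPM and 108 and 87.8 RPM (log2 3.57 ± 0.31), and its partner Psmb9 9.62 and 4.01 and 52.5 and 34.7 RPM (log2 2.58 ± 0.33). B2m (Entrez ID 12010, chromosome 2, 122147687 to 122153082), the light chain of every class I molecule, rose from 456 and 471 to 1349 and 1219 RPM (log2 1.47 ± 0.13). Psmb9, Tap1, Psmb8 and Tap2 lie side by side on chromosome 17 (34182030 to 34216321), and all 4 rose, although Tap2 was not called with a pseudocount of 5 (0.89). The heavy chain genes H2-K1 (554 and 566 against 440.2 and 423 RPM) and H2-D1 (63.4 and 46.2 against 67.8 and 65.2 RPM) were not called. Another class I gene, H2-Q10, outside the list, fell from 88.3 and 91.5 to 4.04 and 1.56 RPM. Interferon genes did not move together: Irf7 rose from 5.39 and 6.48 to 39.9 and 24.2 RPM (log2 2.22 ± 0.33), Stat2 fell from 46.6 and 34.0 to 14.3 and 11.8 RPM (log2 -1.54 ± 0.30), and Isg15, Ifit3 and Bst2 were below the filter.

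The interferon-stimulated response element (GAAANN followed directly by GAAA, or the reverse complement), a site of IRF factors that BLIMP1 is known to share, lay in 9 of 27 promoter windows of the MHC class I and interferon list (33.3%; windows for 22 of 30 genes) and in 3.44% of all windows. Among windows of the called members it lay in 3 of 13. The stretch before the B2m start is shown because B2m pairs with the heavy chains of class I, and the element is in capitals.
B2m (chr2:122147537-122147686, plus strand): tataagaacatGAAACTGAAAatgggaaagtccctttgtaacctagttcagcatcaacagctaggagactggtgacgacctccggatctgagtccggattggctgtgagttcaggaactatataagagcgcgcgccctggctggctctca

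The letters AGNGAAAG, the core of the site known for BLIMP1, lay in 9.64% of the windows of genes that rose, 8.03% of those that fell, 7.73% of those of all tested genes and 8.63% of all windows, counting both strands. This motif overlaps the interferon element, and these shares are descriptions of sequence only.

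Defence genes of the epithelium rose in 8 of 17 tested and fell in 4 (31 on the list), and 6 of the 17 were tested on their P3 values alone. With a filter of 20 RPM 4 rose and 1 fell. Pigr (Entrez ID 18703, chromosome 1, 130826684 to 130852249), the receptor that carries IgA into the lumen, rose from 32.3 and 12.3 to 337 and 309.9 RPM and reached 629 and 718 RPM at P14 (log2 3.94 ± 0.25 at P3). The chemokine Ccl20, which draws lymphoid cells, rose from 2.69 and 0.926 to 48.4 and 51.2 RPM (log2 4.25 ± 0.34), and Ccl28, which draws IgA-producing cells, from 0.769 and 2.1999 to 15.7 and 19.5 RPM (log2 2.96 ± 0.38). Tnfsf13b, the B cell factor BAFF, was listed at 0 at E16.5 and read at 7.17 and 8.08 RPM at P3. The cytokine Il18 fell from 70.8 and 79.3 to 16.6 and 16.2 RPM (log2 -2.13 ± 0.24).

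Immediate early genes, which respond within minutes to growth signals and also to cell dissociation, rose in 16 of 20 tested and none fell (24 on the list, median 1.92). Of the 20, 3 were tested on their P3 values alone. Fos stood at 100.4 and 187 RPM at E16.5, 706 and 658 RPM at P3 and 999.6 and 779 RPM at P14 (log2 2.31 ± 0.19), and the heat shock gene Hspa1a rose from 55.4 and 54.4 to 312 and 406 RPM (log2 2.67 ± 0.16). This list moved with age, and with the protocol step that differed between the ages, beside every rise described above. Its part in them was not tested.

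Several large changes fell outside the lists. The water channel Aqp1 rose from 1.154 and 1.85 to 98.6 and 113 RPM (log2 5.43 ± 0.24). The gasdermins Gsdmc2, Gsdmc3 and Gsdmc4, close copies on chromosome 15, rose in a run of 6 neighbouring tested genes (60822965 to 63912319) that also held Myc. Gsdmc4 went from 0.385 and 0.154 to 42.4 and 65.1 RPM (log2 5.40 ± 0.30), and Gsdmc3 was listed at 0 at E16.5. Rnase1, a secreted ribonuclease, rose from 7.69 and 5.56 to 238 and 242 RPM (log2 4.996 ± 0.20). Cartpt, a neuropeptide precursor, rose from 0 and 0.309 to 25.6 and 22.2 RPM but held 1.22 and 2.81 RPM at P14 (log2 4.44 ± 0.47 at P3). Among the falls, Pdzk1ip1, a membrane partner of the scaffold Pdzk1, fell from 349 and 462 to 20.6 and 25.9 RPM (log2 -4.06 ± 0.21), and Bex4 from 569 and 570.4 to 24.2 and 42.6 RPM (log2 -4.11 ± 0.21). F10, which encodes the clotting factor X, fell from 51.2 and 56.2 to 3.14 and 1.35 RPM (log2 -4.13 ± 0.41). The largest adjusted p among the 30 largest rises and 30 largest falls was 2.1e-04.

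Some calls lay next to each other on the chromosomes. Of 10001 pairs of neighbouring tested genes, 2.12% rose together and 1.42% fell together, and 53 runs of at least 3 neighbours with the same call were found. Untested genes between neighbours were passed over. With 12.3% of all tested genes rising and 8.43% falling, some pairs share a call if calls are independent, and that share was not worked out. Besides the defensin, gasdermin, Cyp2c and MHC runs, 7 genes of the Ugt2 and Sult clusters on chromosome 5 (87065927 to 87569006) fell side by side, with Sult1b1, a sulfotransferase, going from 446 and 521 to 162 and 198 RPM (log2 -1.42 ± 0.15). A run of 5 alpha-class glutathione transferase genes on chromosome 9 (78191966 to 78347192) fell as well.

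The P14 libraries place these changes on a longer course. Of the 1252 genes that rose, the P14 mean lay between the E16.5 and P3 means in 794, above both in 429 and below both in 29. Among the 858 that fell, P14 lay between in 424, below both in 420 and above both in 14. Of the 18 endocrine genes 15 were lower at P14 than at P3, while 14 of the 16 Paneth and antimicrobial genes were higher. In the lipid list 19 of 25 were lower at P14 than at P3. Of all 10178 tested genes, 6132 were lower and 4045 higher at P14, so a lower P14 mean was the commoner direction in general. These P14 values share the reporter-negative gate with P3 and were not tested against it here.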

How the data were processed

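The authors made amplified 3′ RNA-seq libraries and deposited 1 table for all 26. The steps named are cutadapt 1.11, TopHat 1.4.1, Bowtie 1.0.1 and Cufflinks 2.2.0 with mm10, per the submitters' processing notes. Per the file headers, the deposited signal is expression in RPM. Low values were whole reads (within 0.02 of a read) in only 87.5 to 88.7% of cases in the 4 libraries compared, so no count model was used. Of 26310.0 lines, 1164 held values moved against the header and were left out (1072 gene lines, 4.09%, and 92 spike-ins). The other 25146 were used as deposited.

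Genes with at least 5 RPM in 2 of the 4 libraries (10178, 40.5%) were tested in R 4.3.3 with limma 3.58.1 (trend) on log2(RPM + 1), in a fit of the 6 intestinal samples, two-sided. The fit was tested on simulated data. Tables and figures used Python 3.11.15, NumPy 2.4.6, pandas 2.3.3 and matplotlib 3.10.9. Positions and promoters came from RefSeq for GRCm38.p6, where 24062 lines matched. The text names members of 39 gene lists, the 30 largest rises and 30 largest falls with a mean of at least 20 RPM in the higher age, Prdm1 and Epcam. Some of these genes are not reported here. The members and lists were chosen with earlier results of these data known. The series text calls the P3 group embryonic while its sample titles give P3, and the titles were followed. Alternatives were other pseudocounts, filters, scalings and fits, and each library left out.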

Additional observations from a re-analysis of the deposited data

How the results depend on the processing

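Of 15 alternatives, 1 moved the count of all rises or all falls by more than 1.5 times: with a filter of 20 RPM, 674 genes rose, as against 1252, among the 6890.0 genes then tested. All 674 were among the 1252. With libraries left out in turn, 1047 to 1253 genes rose and 731 to 863 fell. Across the alternatives that kept all libraries, rises ranged from 674 (filter of 20 RPM) to 1289 (pseudocount of 0.5 RPM), and falls from 607 (filter of 20 RPM) to 1011 (quantile normalization). The count of called members moved by more than 1.5 times in 12 of 39 lists under 9 of the alternatives. In 8 of the 12 at most 5 members were called; the others were the enteroendocrine transcription factors, Notch, Wnt and defence lists, with values in the report. None of the 15 called a gene in the direction opposite to the one reported. Of 148 genes given with a difference, 129 were called, and 125 of these stayed called under each alternative that tested them. Foxa1, Acta2, Bmp7 and Notch1 did not. Acadm (-1.06), Grb10 (-1.03) and Srebf2 (-1.04) were called as falling after median-of-ratios scaling.

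Replicate numbers are shared between the groups, but they did not pair the samples. The correlation of same-numbered deviations was 0.036 between E16.5 and P3, -0.047 between E16.5 and P14 and -0.045 between P3 and P14. With the replicate number as a block, 1251 genes rose and 855 fell. With 2 libraries against 2, an exact permutation test of a single gene could not go below p = 0.333, so each call rests on the spread pooled across genes. The depth of 2.23 to 3.24 M reads limits genes near 1 RPM, where a value stands for a few reads.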

Other observations

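Genes that changed between the ages were more often quiet in the other sorted cells of the series than tested genes were in general. A highest group mean below 5 RPM outside the intestine (retina, B lineage and germ cell-like cells) was found for 227 of the 1252 genes that rose (18.1%), 203 of the 858 that fell (23.7%) and 744 of the 10178 tested (7.31%). The shares were not tested. All 16 tested Paneth and antimicrobial genes and 12 of 13 tested goblet genes were of this kind, but 1 of 30 sterol and fatty acid synthesis genes and none of 39 cell cycle genes.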
